A study of Cucumis sativus with 8 samples.

Results

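The difference between 2 normal cucumber tissues was described from the wild-type (WT) libraries of a study of *CsIVP*, a gene for a basic helix-loop-helix transcription factor that the sample labels call *CsIND*. The libraries were chosen by their labelled genotype and tissue alone: 2 of leaf vein and 2 of young fruit, 4 of the 8 libraries of the series, and the 4 *CsIVP*-RNAi libraries entered no test. All 4 came from untransformed plants of inbred line R1461, a northern China type of *Cucumis sativus*. Vein means midveins cut from the youngest expanded leaves, and fruit means young fruits taken 4 d before anthesis, when the fruit is still an unpollinated ovary. The replicates are labelled as biological, but the sources do not say whether plants were pooled or at what hour each tissue was collected. Of 17783 genes in the table, 17492 reached 1 RPM (reads divided by the library total and scaled to 1e+06) in at least 2 of the 4 libraries and were tested with limma on log2(RPM + 0.5). With 2 libraries against 2, an exact permutation test of a single gene cannot go below p = 0.333, so calls rest on the spread shared across genes.

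A midvein carries water in xylem, whose vessels have lignified secondary walls, and sugars in phloem, whose sieve elements lie on both sides of the xylem in cucurbits. Green cells around these strands hold chloroplasts. An ovary before anthesis holds dividing and enlarging cells, ovules and an outer epidermis that is building its cuticle, and meristem and floral regulators are still active in it. Since the tissues were sequenced whole, fewer cells of a type and less RNA per cell cannot be told apart in any of the values below.

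The libraries held 18088985 and 20743744 reads in vein and 21968186 and 22979345 in fruit, as recovered from the deposited RPM values. Across genes, which are not independent replicates, log2 RPM correlated at 0.994 between the vein libraries, at 0.988 between the fruit libraries and at 0.827 to 0.835 between tissues. The vein libraries were more unequal in composition. Their 10 most abundant genes held 8.23% and 7.45% of all RPM, against 3.18% and 3.05% in fruit, and their 100 most abundant genes held 24.9% and 23.1%, against 11.5% and 11.8%.

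**Figure D1:**
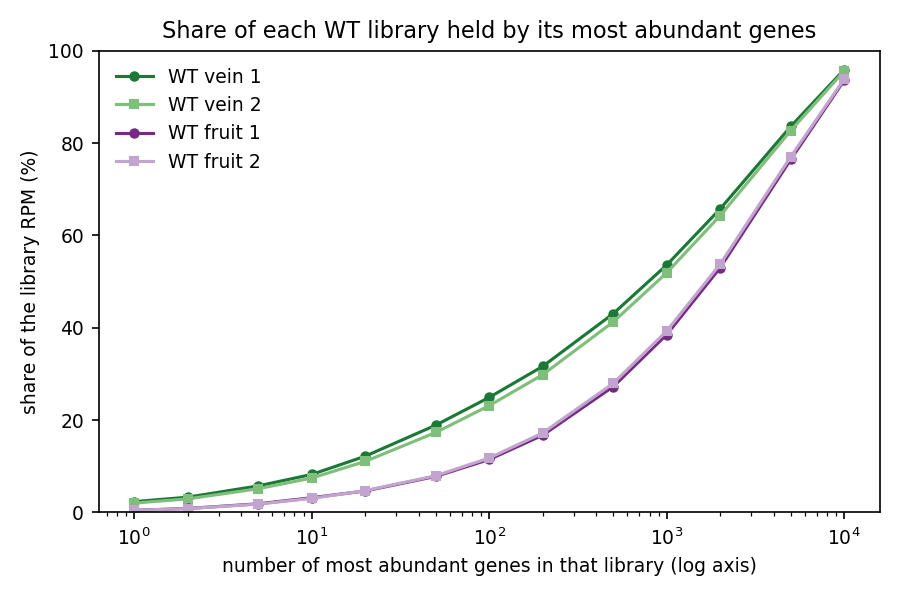
Share of each WT library's RPM (y axis, %) held by its most abundant genes (x axis, number of genes, log axis), with 1 line per library. Both vein lines lie above both fruit lines over the first 100 genes, where vein reaches 24.9% and 23.1% and fruit 11.5% and 11.8%.

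On the RPM scale 1515 genes were higher in vein and 4186 higher in fruit, at least 2-fold and at an adjusted p under 0.05 by limma, which is 8.66% and 23.9% of the genes tested. This split moved with the scaling. The median log2 difference of all genes tested, coded vein minus fruit throughout, was -0.51 on the RPM scale and -0.03 after scaling by edgeR's TMM factors, which discount the most extreme genes. On the TMM scale 2470 genes (14.1%) were higher in vein and 1999 (11.4%) higher in fruit, so that vein held 55.3% of the calls instead of 26.6%. All 1515 vein calls and 1999 of the 4186 fruit calls were made on both scales, 3514 in all, and no gene was called in opposite directions. Most genes named below are given with their RPM in each library and their log2 difference on the RPM scale with the standard error. Some are given by fold or by RPM only. The call on the TMM scale is given where it differed. A difference is best read against the median of -0.51, so a gene at 0 stands above most genes. Counts of list members called are likewise to be read against the shares of all genes tested. These are 8.66% in vein and 23.9% in fruit on the RPM scale, and 14.1% and 11.4% on the TMM scale.

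**Figure D2:**
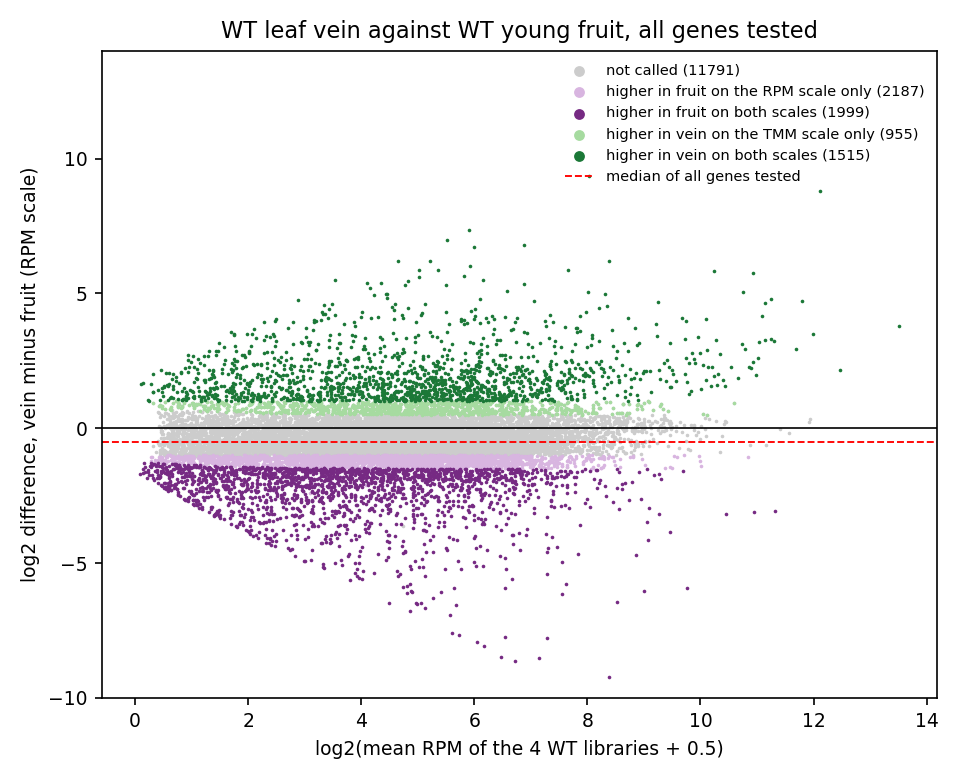
Log2 difference of vein minus fruit on the RPM scale (y axis) against log2 of the mean RPM plus 0.5 (x axis) for the 17492 genes tested, 1 point each. The dashed line at -0.51 is the median, 1515 dark green genes were higher in vein on both scales, 1999 dark purple genes higher in fruit on both, and the pale points were called on 1 scale only (955 higher in vein on the TMM scale, 2187 higher in fruit on the RPM scale).

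*CsIVP* (Csa6G483450), which belongs to the *HECATE3* subfamily of bHLH genes, had 0 reads in both WT vein libraries and 49.98 and 38.3 RPM in the fruit libraries. A count of 0 allows up to 3 reads, or 0.166 and 0.145 RPM, in these vein libraries for counting error only. Against the mean of these floors *CsIVP* was at least 284-fold higher in fruit. The RNAi target of the study was not detectable at this depth in the WT midvein sampled here. By in situ hybridization the paper found its mRNA in leaf primordia, young stems and fruit, especially in vascular tissue. By qRT-PCR it reports expression in young leaf and stem and a high level in young fruit. Of these organs young fruit was also sequenced here, while leaf primordia, stem and whole young leaf were not.

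The class I KNOX homeobox genes, which keep cells in a meristem-like state, fell on different sides. *KNAT2* (Csa2G034560) had 0.442 and 0.434 RPM in vein and 47.8 and 61.4 in fruit, a log2 difference of -5.87 ± 0.18 (SE, limma adjusted p = 5.47e-07). Mean fruit RPM was 125-fold mean vein RPM, and the groups lay far apart. *KNAT6* (Csa5G600390) had 1.77 and 1.88 RPM in vein and 21.4 and 19.1 in fruit (-3.15 ± 0.16, limma adjusted p = 3.31e-06). *STM* (Csa7G041370) had 10.5 and 10.1 RPM in vein and 18.8 and 28.9 in fruit (-1.14 ± 0.20, limma adjusted p = 1.25e-03), with fruit above vein in each library. It was called on the RPM scale only, since the difference was -0.65 on the TMM scale, and it lost the call without fruit replicate 2. *BP* (Csa2G352430) was the KNOX gene on the vein side, at 2.82 and 1.74 RPM in vein and 0.410 and 1.22 in fruit (1.12 ± 0.36, limma adjusted p = 0.0221). The groups did not overlap but all 4 values were low. The *BP* call was lost without vein replicate 1 (limma adjusted p = 0.170) or fruit replicate 1 (limma adjusted p = 0.0891).

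The YABBY genes, which specify the lower side of lateral organs in Arabidopsis, also differed in direction. *YAB5* (Csa2G006820) had 113 and 134 RPM in vein and 12.7 and 14.9 in fruit, 8.99-fold higher in vein (log2 difference 3.12 ± 0.12, limma adjusted p = 1.22e-06). *FIL* (Csa5G160210) had 64.8 and 69.3 RPM in vein and 204 and 285 in fruit, 3.64-fold higher in fruit (-1.84 ± 0.15, limma adjusted p = 2.62e-05). Vein and fruit did not overlap for either gene, and both calls held on the TMM scale.

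**Figure D3:**
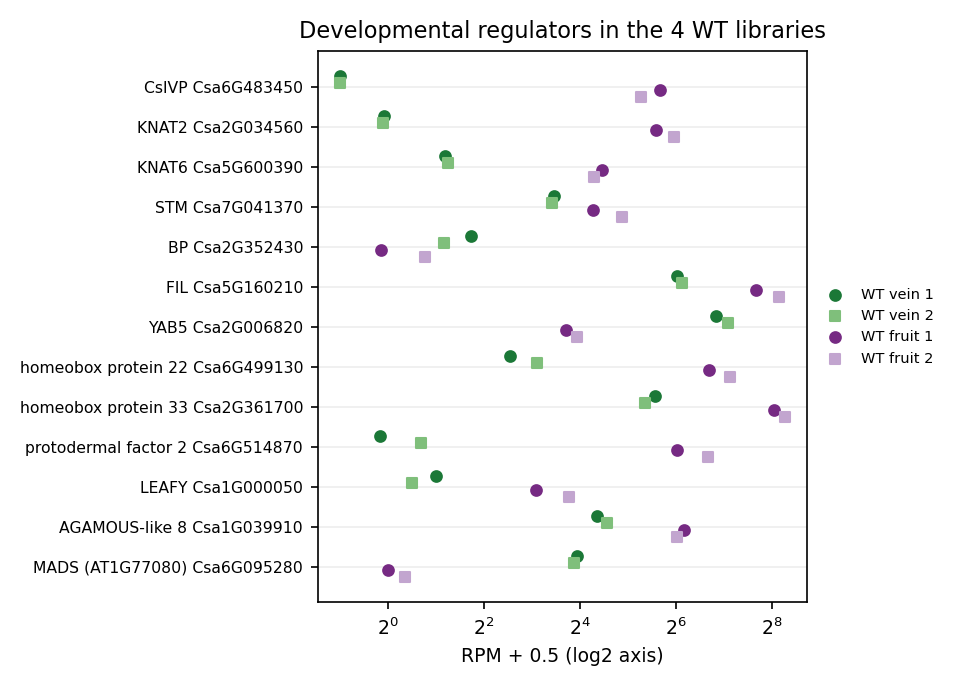
RPM plus 0.5 (x axis, log2 axis) of 13 developmental regulators (y axis) in each of the 4 WT libraries, green for vein and purple for fruit, circles for replicate 1 and squares for replicate 2. *CsIVP*, *KNAT2* and protodermal factor 2 lie near the left edge in vein and at 38.3 RPM or more in fruit, and *YAB5*, *BP* and the MADS gene Csa6G095280 lie to the right in vein.

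Of the 19 homeobox and YABBY genes tested, 2 were higher in vein, 11 higher in fruit and 6 were not called, and on the TMM scale 2 and 9. Their median was -1.14, against -0.51 over all genes, and it stayed below 0 under each other scaling tried (-0.69 to -0.65). These genes were named by the study because they changed in RNAi vein, 8 as raised and 11 as lowered, so the list was partly chosen on the WT vein libraries and is not independent evidence of a direction. The same holds for every list below that rests on gene names. Among all 1833 tested genes that the study listed as raised in RNAi vein, 4.04% were higher in WT vein and 45.3% higher in WT fruit. Among its 1120 lowered genes the shares were 30.5% and 22.6%. On the TMM scale these were 6.66% and 29.9% of the raised and 43% and 11.9% of the lowered genes. Homeobox protein 22 (Csa6G499130) had 5.31 and 8.15 RPM in vein and 102 and 138 in fruit (log2 difference -4.07 ± 0.21, limma adjusted p = 3.76e-06). Homeobox protein 33 (Csa2G361700) had 46.9 and 40.2 RPM in vein and 261 and 308 in fruit (-2.69 ± 0.11, limma adjusted p = 1.45e-06). In both, each fruit library was above each vein library.

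Floral regulators were measured in 5 genes, of which 3 were higher in fruit and 1 higher in vein on either scale. *LEAFY* (Csa1G000050), which gives meristems floral identity, had 1.49 and 0.916 RPM in vein and 7.92 and 13.2 in fruit (log2 difference -2.68 ± 0.29, limma adjusted p = 1.08e-04). *AGAMOUS-like 8* (Csa1G039910), the match of Arabidopsis *FRUITFULL*, had 19.9 and 23.0 RPM in vein and 71.1 and 64.0 in fruit (-1.63 ± 0.11, limma adjusted p = 1.04e-05). Vein was not at 0 for this gene but stayed well below fruit. A further MADS-box gene (Csa1G051580), named after its values were seen and matched to Arabidopsis *CAULIFLOWER*, had 0 reads in both vein libraries and was at least 18.5-fold higher in fruit. The MADS-box gene Csa6G095280, whose Arabidopsis match belongs to the *FLC* clade of flowering repressors, was the reverse, at 14.8 and 14.3 RPM in vein and 0.501 and 0.783 in fruit (3.73 ± 0.20, limma adjusted p = 4.31e-06).

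NAC transcription factors, of which several steer secondary wall and stress programs, were mostly not called: of 22 tested, 1 was higher in vein, 7 higher in fruit and 14 were not called, with a median of -0.63. On the TMM scale the counts were 2 and 3. Of the 22, 20 had been listed as raised in RNAi vein, among whose genes 45.3% were higher in WT fruit. NAC82 (Csa6G483360) had 16.7 RPM in both vein libraries and 56.9 and 56.8 in fruit (log2 difference -1.74 ± 0.09, limma adjusted p = 3.53e-06). NAC83 (Csa4G011770), which restrains xylem vessel formation in Arabidopsis, had 6.58 and 6.85 RPM in vein and 19.8 and 24.8 in fruit (-1.65 ± 0.15, limma adjusted p = 4.93e-05). NAC36 (Csa6G127320) was the member higher in vein, at 8.35 and 10.99 RPM against 3.23 and 2.00 (1.72 ± 0.24, limma adjusted p = 4.53e-04).

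Photosynthesis genes lay on the vein side. Of 22 genes for photosystem subunits, their assembly factors and the light-harvesting proteins, 20 were higher in vein, none higher in fruit, and all 22 were called on the TMM scale. The median log2 difference was 2.09, and 2.11 to 2.63 under the other scalings. Together they took 32577 and 29786 RPM in vein and 5085 and 5194 in fruit. All 22 were listed by the study as lowered in RNAi vein, among whose genes 30.5% were higher in WT vein. The light-harvesting protein Csa3G664560, a subunit B1 of the complex II antenna, had 3637 and 3098 RPM in vein and 107 and 93.5 in fruit, 33.6-fold higher (5.06 ± 0.11, limma adjusted p = 2.36e-07). A second B1 gene, Csa1G445860, had 4586 and 4070 RPM in vein and 200 and 151 in fruit (4.63 ± 0.15, limma adjusted p = 5.94e-07). The gene annotated as chlorophyll A/B binding protein 1 (Csa6G139750) had 9598 and 8943 RPM in vein and 2027 and 2174 in fruit (2.14 ± 0.14, limma adjusted p = 1.15e-05). PSI-N, a subunit of photosystem I (Csa6G483300), had 1325 and 1205 RPM in vein and 144 and 139 in fruit (3.16 ± 0.08, limma adjusted p = 3.63e-07). All 22 photosystem genes were without overlap between the tissues, as were 89.1% of all genes tested.

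Genes for the plastid's own transcription and translation lay on the same side. Of 15 tested, 10 were higher in vein and 5 not called, and on the TMM scale all 15 were higher in vein, with a median of 1.38 on the RPM scale. Again all 15 came from the list of genes lowered in RNAi vein. The plastid-specific 50S ribosomal protein 5 (Csa4G419580) had 341 and 317 RPM in vein and 58.8 and 57.1 in fruit (log2 difference 2.49 ± 0.08, limma adjusted p = 5.52e-07). By contrast, a gene ontology (GO) list of structural constituents of the ribosome, not chosen on RNAi values, gave 3 of 47 tested higher in vein. Another 3 were higher in fruit, and both shares lay below the 8.66% and 23.9% of all genes. The median of the 47 was 0.03 (0.13 to 0.55 under the other scalings). This list was cut to its first 50 identifiers. Those tested ran from Csa1G000010 to Csa2G000570, so the list does not stand for the whole ribosome.

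Xylem and lignin genes were divided between the tissues. Of 21 xylem and lignin genes tested, of 30 in the table, 7 were higher in vein, 7 higher in fruit and 7 not called, and on the TMM scale 8 and 4. Their median was 0.14, and 0.51 to 0.68 under the other scalings, while that of all genes was -0.51. The 7 on the vein side were 3 laccases, *IRX6*, a fasciclin-like protein and a pair of cellulose synthases, whose Arabidopsis matches act in or mark lignified secondary walls. The fasciclin-like protein and the cellulose synthases entered the list by their Arabidopsis match, while every other member entered by name. The counts and the median of the list thus rest in part on secondary wall genes added in this way. A laccase 17 gene (Csa3G734120), for an enzyme that polymerizes lignin, had 10.3 and 8.53 RPM in vein and 0.273 and 0.479 in fruit (3.51 ± 0.22, limma adjusted p = 9.46e-06). The other (Csa1G085370) had 62.6 and 71.7 RPM in vein and 13.97 and 12.2 in fruit (2.32 ± 0.11, limma adjusted p = 3.18e-06). Laccase Csa3G732490 had 68.8 and 69.3 RPM in vein and 12.6 and 15.4 in fruit (2.27 ± 0.11, limma adjusted p = 3.39e-06). All 3 laccases were 4.94-fold or more higher in vein, and no vein library came near a fruit library.

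*IRX6* (Csa1G015700), a COBRA-like protein of secondary wall cellulose, had 8.85 and 8.20 RPM in vein and 1.502 and 1.91 in fruit (log2 difference 2.04 ± 0.19, limma adjusted p = 5.42e-05). Fasciclin-like arabinogalactan protein 11 (Csa1G085380), a marker of the same wall in Arabidopsis, had 77.6 and 82.5 RPM in vein and 32.0 and 31.3 in fruit (1.32 ± 0.08, limma adjusted p = 8.11e-06). The matches of Arabidopsis secondary wall cellulose synthases, named here after their values were seen, were 4.24-fold (Csa2G070320) and 2.58-fold (Csa1G470270) higher in vein. A cellulose synthase-like B1 gene (Csa7G041990) of the study's list of vascular development genes had 122 and 89.8 RPM in vein and 5.55 and 6.48 in fruit (4.02 ± 0.16, limma adjusted p = 1.35e-06).

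Other members of the list were higher in fruit. Laccase 3 (Csa1G533470) had 1.71 and 2.07 RPM in vein and 18.1 and 21.1 in fruit (log2 difference -3.07 ± 0.17, limma adjusted p = 5.14e-06). The gene annotated CCR-like (Csa3G598910) had 5.36 and 3.18 RPM in vein and 67.9 and 63.3 in fruit (-3.83 ± 0.21, limma adjusted p = 4.64e-06). It entered the list by its name, but its Arabidopsis match is a clock-controlled transcript and not a lignin enzyme. The call on Csa3G598910 was lost when the RNAi libraries shared the fit (limma adjusted p = 0.0637). A further COBRA-like gene (Csa4G129050), matched to Arabidopsis *COBRA* of the primary wall, had 2.16 and 2.27 RPM in vein and 10.4 and 10.1 in fruit (-1.99 ± 0.16, limma adjusted p = 3.12e-05). The remaining fruit calls of the list, not named here, ran from -1.74 to -1.13. Only the largest of them was also called on the TMM scale. Laccases and COBRA-like genes thus occurred on both sides, and *CCR1* (Csa3G717370), a cinnamoyl-CoA reductase of lignin synthesis, was under the expression filter.

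**Figure D4:**
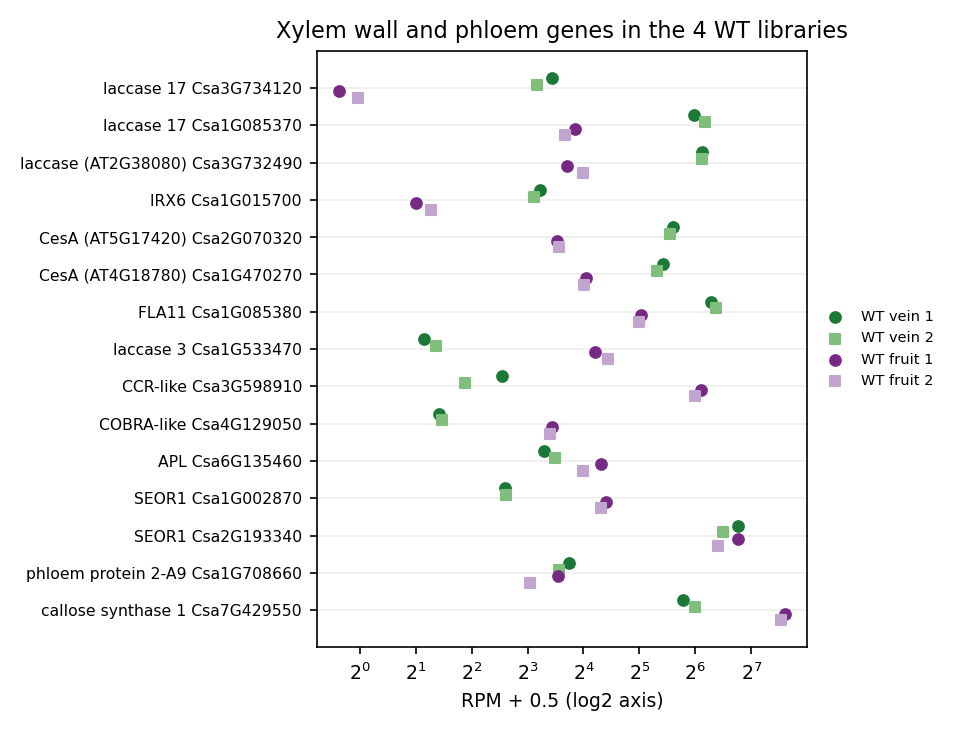
RPM plus 0.5 (x axis, log2 axis) of 10 genes of the xylem and lignin list (upper rows) and 5 phloem genes (lower rows) in each of the 4 WT libraries, green for vein and purple for fruit, circles for replicate 1 and squares for replicate 2. The upper 7 genes lie to the right in vein, laccase 3, CCR-like and the second COBRA-like gene to the right in fruit, and none of the 5 phloem genes was called higher in vein.

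No phloem gene was called higher in vein. Of 14 tested, 7 were higher in fruit and 7 not called, and on the TMM scale 3 were higher in fruit. Their median was -0.98, and -0.59 to -0.54 under the other scalings, against -0.51 over all genes on the RPM scale and -0.03 on the TMM scale. Of the 14, 9 were listed as raised in RNAi vein and 3 as lowered. Of all genes tested 8.66% were higher in vein and 23.9% higher in fruit, and of those listed as raised 4.04% and 45.3%. In a list of 14 genes, none in vein and 7 in fruit lie near the shares of the raised genes. The sieve element protein SEOR1, which forms the filaments of sieve tubes, had 2 genes. Csa2G193340 had 109 and 89.4 RPM in vein and 108 and 84.4 in fruit (0.05 ± 0.14, limma adjusted p = 0.767), so that the tissues overlapped. Csa1G002870 had 5.58 and 5.59 RPM in vein and 20.8 and 19.4 in fruit (-1.76 ± 0.13, limma adjusted p = 1.93e-05).

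*APL* (Csa6G135460), the MYB factor that specifies phloem in Arabidopsis, had 9.34 and 10.7 RPM in vein and 19.3 and 15.4 in fruit. Fruit was above vein in each library, but the difference of -0.76 ± 0.15 (limma adjusted p = 2.78e-03) was under 2-fold and was -0.28 on the TMM scale. Phloem protein 2-A9 (Csa1G708660), a lectin-type protein, had 12.9 and 11.3 RPM in vein and 11.2 and 7.70 in fruit (0.36 ± 0.19, limma adjusted p = 0.119). Both vein libraries lay just above both fruit libraries, and on the TMM scale the difference was 0.84 (limma adjusted p = 5.28e-03), still under 2-fold. Callose synthase 1 (Csa7G429550), of the family that makes callose at plasmodesmata and sieve plates, entered the phloem list by its name. It had 54.5 and 63.0 RPM in vein and 193 and 184 in fruit (-1.68 ± 0.09, limma adjusted p = 4.56e-06). The GO list of 1,3-beta-D-glucan synthases, the callose-making enzymes, gave 5 of 14 higher in fruit and none in vein, and 4 and 0 on the TMM scale. Over all genes tested 23.9% were higher in fruit (11.4% on the TMM scale). Csa1G605110 of that list had 222 and 245 RPM in vein and 711 and 738 in fruit (-1.63 ± 0.09, limma adjusted p = 3.86e-06). Whether the share of phloem cells differed between the tissues was not tested.

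Over the study's list of vascular development genes as a whole, 33 of 38 were tested, 5 were higher in vein and 15 higher in fruit, and on the TMM scale 5 and 11. The median was -0.90 on the RPM scale and -0.41 to -0.27 under the other scalings. The study chose this list on vein libraries that include those used here. Among the vascular lists, xylem and lignin genes were called in both directions and no phloem gene was called higher in vein. The phloem counts lay near the shares of all genes listed as raised in RNAi vein.

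Of 11 MtN3 and MtN21 genes, which encode SWEET sugar exporters and UMAMIT-type amino acid or auxin carriers, 7 were higher in vein, 2 higher in fruit and 2 not called, with a median of 2.13. On the TMM scale 7 were higher in vein and 1 in fruit. Of the 11, 9 had been listed as lowered in RNAi vein, of which 30.5% were higher in WT vein (43% on the TMM scale). The MtN21 gene Csa3G818270 had 50.6 and 59.9 RPM in vein and 0.865 and 0.653 in fruit, 72.8-fold higher (5.47 ± 0.17, limma adjusted p = 5.70e-07). A second MtN21 gene, Csa5G181440, had 22.2 and 25.0 RPM in vein and 1.55 and 0.827 in fruit (3.87 ± 0.23, limma adjusted p = 7.01e-06). The MtN3 genes themselves were divided. Csa1G001300 had 0.498 and 0.289 RPM in vein and 12.1 and 14.3 in fruit (-3.95 ± 0.21, limma adjusted p = 4.49e-06), while Csa4G622870, named after its values were seen, was 4.46-fold higher in vein.

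Aquaporins, the membrane channels for water, were split as well. Of 10 named members tested, 2 were higher in vein and 4 higher in fruit, and on the TMM scale 2 and 2. Plasma membrane intrinsic protein 1;4 (Csa5G199280) had 198 and 180 RPM in vein and 19.0 and 10.7 in fruit (log2 difference 3.68 ± 0.23, limma adjusted p = 8.02e-06). Plasma membrane intrinsic protein 2 (Csa5G623360) had 45.6 and 37.9 RPM in vein and 172 and 246 in fruit (-2.29 ± 0.17, limma adjusted p = 1.78e-05). A gamma tonoplast protein (Csa3G743400) had 165 and 135 RPM in vein and 542 and 713 in fruit (-2.05 ± 0.15, limma adjusted p = 1.64e-05). In the broader GO list of water transport, 7 of 27 tested genes were higher in vein and 10 higher in fruit, and on the TMM scale 10 and 6. Its member Csa5G162580 had 613 and 630 RPM in vein and 38.1 and 18.0 in fruit (4.54 ± 0.29, limma adjusted p = 9.38e-06).

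Of 19 kinesins, microtubule proteins and aurora kinases, which build the spindle and the phragmoplast, 13 were higher in fruit and none higher in vein, and on the TMM scale 4 and 0. The median of -1.19 stayed at -0.73 to -0.68 under the other scalings. Of 24 cyclins and cyclin-dependent kinases 14 were higher in fruit and 3 higher in vein, and on the TMM scale 8 and 3. None of 8 replication licensing genes was called on either scale, and among 17 histone genes 1 was higher in fruit on the RPM scale and 0 on the TMM scale. The histone genes ranged from -1.01 to -0.31 around a median of -0.58, which moved to -0.67 to -0.06 under the other scalings. The licensing median of -0.47 turned to 0.03 with TMM factors and 0.04 with DESeq2, so no direction is given. All of these genes except 3 of the cyclins and kinases had been listed as lowered in RNAi vein. Of all genes so listed 30.5% were higher in WT vein and 22.6% higher in WT fruit (43% and 11.9% on the TMM scale). Of all genes tested the shares were 8.66% and 23.9% (14.1% and 11.4% on the TMM scale).

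Phragmoplast orienting kinesin 2 (Csa2G237130), which guides the division plane, had 44.5 and 54.4 RPM in vein and 156 and 160 in fruit (log2 difference -1.67 ± 0.10, limma adjusted p = 8.44e-06). A cell cycle regulated microtubule protein (Csa3G038080) had 8.62 and 11.3 RPM in vein and 40.7 and 41.7 in fruit (-2.01 ± 0.14, limma adjusted p = 1.52e-05). The mitotic kinase CDKB2;2 (Csa4G664480) had 46.9 and 48.0 RPM in vein and 159 and 167 in fruit (-1.77 ± 0.07, limma adjusted p = 1.61e-06). Replicates of these 3 genes lay close together, with fruit 3.20-fold to 4.13-fold above vein. Cyclin D2;1 (Csa6G499110), which links growth signals to entry into the cycle, had 1.27 and 2.51 RPM in vein and 36.8 and 24.3 in fruit (-3.72 ± 0.29, limma adjusted p = 2.40e-05). Both genes annotated cyclin p4;1 were among the 3 members higher in vein, at 12.99 and 20.4 RPM against 0.637 and 0.522 for Csa4G025110 (3.96 ± 0.24, limma adjusted p = 8.12e-06) and at 21.9 and 22.6 RPM against 4.69 and 2.61 for Csa3G127030 (2.50 ± 0.24, limma adjusted p = 6.11e-05).

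GO lists of related functions, which hold genes whether or not they changed in RNAi vein, were counted in the same way. They share members with the name lists above and are not independent of them. Of the motor genes 18, and of the origin binding genes 7, had been listed as lowered in RNAi vein. The motor and kinase lists were cut to their first 50 identifiers. Of 43 microtubule motor genes 17 were higher in fruit and 3 in vein (7 and 4 on the TMM scale), with a median of -0.85. Of 42 cyclin-dependent kinase genes 15 were higher in fruit and none in vein (6 and 2), with a median of -0.71. DNA-directed DNA polymerase gave 16 of 43 higher in fruit and 1 in vein (3 and 2), with a median of -0.79, and DNA replication origin binding gave 1 of 21 and 0 on either scale, with a median of -0.54. On the TMM scale the fruit shares of the polymerase and origin lists were thus under the 11.4% of all genes, and those of motors and kinases somewhat above it. Csa6G426950 of the polymerase list had 29.1 and 34.7 RPM in vein and 172 and 177 in fruit (-2.44 ± 0.10, limma adjusted p = 1.42e-06).

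**Figure D5:**
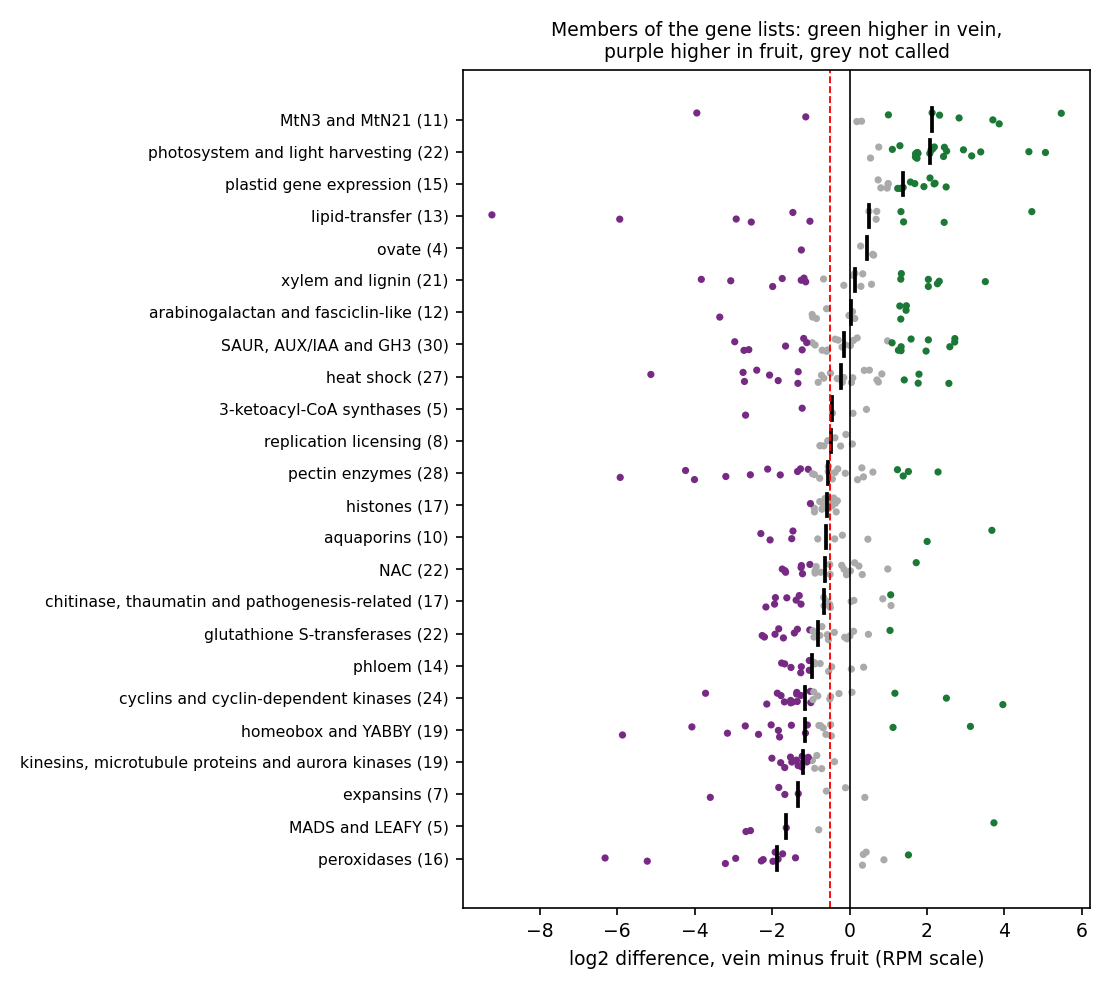
Log2 difference of vein minus fruit on the RPM scale (x axis) for each tested member of 24 gene lists made from gene names (y axis, number tested in brackets), green for higher in vein, purple for higher in fruit and grey for not called, with a black bar at each list's median. The xylem and lignin list also took genes by Arabidopsis match. Photosystem members all lie above 0, peroxidases reach from -6.32 to 1.52, and the dashed line marks the median of all genes at -0.51.

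Expansins let walls extend, and of 7 tested 4 were higher in fruit and none in vein (3 and 0 on the TMM scale). Of all genes tested 23.9% were higher in fruit and 8.66% in vein (11.4% and 14.1% on the TMM scale). Expansin A1 (Csa1G009820) had 33.5 and 37.2 RPM in vein and 456 and 410 in fruit, 12.3-fold higher (log2 difference -3.60 ± 0.09, limma adjusted p = 3.01e-07). Of 28 pectin enzymes and their inhibitors, 10 were higher in fruit and 4 higher in vein, and on the TMM scale 7 and 5. Pectin methylesterase 3 (Csa7G343870), which demethylates wall pectin, had 2.27 and 2.60 RPM in vein and 139 and 227 in fruit (-5.92 ± 0.21, limma adjusted p = 9.88e-07). A polygalacturonase inhibiting protein (Csa4G154320), of a family that blocks pectin-cutting enzymes of fungi, had 290 and 261 RPM in vein and 2558 and 2486 in fruit (-3.20 ± 0.10, limma adjusted p = 5.29e-07). These genes were low but not absent in vein.

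Among 12 arabinogalactan and fasciclin-like proteins, 4 were higher in vein and 1 higher in fruit on either scale. The member higher in fruit was arabinogalactan protein 31 (Csa1G074910), at 10.8 and 12.6 RPM in vein and 105 and 146 in fruit (log2 difference -3.35 ± 0.16, limma adjusted p = 2.75e-06). In the GO list of structural wall constituents, 2 of 7 were higher in fruit. Its member Csa7G322600 had 49.98 and 64.1 RPM in vein and 942 and 1089 in fruit (-4.15 ± 0.13, limma adjusted p = 5.94e-07).

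Lipid-transfer superfamily proteins, small secreted proteins that bind lipids, split into 4 of 13 higher in vein and 6 higher in fruit, and 7 and 5 on the TMM scale. Of this family Csa3G026660 had 0.387 and 0.868 RPM in vein and 613 and 721 in fruit, 1063-fold higher (log2 difference -9.24 ± 0.20, limma adjusted p = 2.36e-07). Csa3G026150 had 32.0 and 23.1 RPM in vein and 1493 and 1927 in fruit (-5.94 ± 0.17, limma adjusted p = 4.53e-07). Csa3G026690, whose number places it close to both, was the reverse, at 259 and 251 RPM in vein and 4.64 and 18.0 in fruit (4.71 ± 0.49, limma adjusted p = 9.93e-05). Reads shared between near-identical copies could not be checked, so values of such neighbours are uncertain.

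Protodermal factor 2 (Csa6G514870), a homeodomain regulator of the outer cell layer, had 0.387 and 1.11 RPM in vein and 64.4 and 102 in fruit, 111-fold higher (log2 difference -6.09 ± 0.31, limma adjusted p = 3.75e-06). The enzyme 3-ketoacyl-CoA synthase 12 (Csa1G501850), of the family that elongates cuticle fatty acids, had 9.79 and 11.4 RPM in vein and 75.6 and 66.0 in fruit (-2.69 ± 0.12, limma adjusted p = 1.97e-06). Of the 5 synthases tested, 2 were higher in fruit, and on the TMM scale 1. Each fruit library was above each vein library in both genes.

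Of 30 SAUR, AUX/IAA and GH3 genes, the early auxin-responsive families, 10 were higher in vein, 7 higher in fruit and 13 not called, and on the TMM scale 11 and 4. The median of -0.15 turned to 0.33 to 0.37 under the other scalings, so no direction is given. The repressor gene IAA16 (Csa7G378520), whose annotation lies outside the list's words, had 79.0 and 80.5 RPM in vein and 1.27 and 0.566 in fruit, 86.7-fold higher (5.87 ± 0.23, limma adjusted p = 1.39e-06). A neighbouring AUX/IAA gene (Csa7G378530) had 38.5 and 43.3 RPM in vein and 8.06 and 4.13 in fruit (2.72 ± 0.26, limma adjusted p = 6.69e-05). IAA29 (Csa3G877650) was the reverse, at 8.02 and 9.64 RPM in vein and 59.7 and 62.3 in fruit (-2.73 ± 0.12, limma adjusted p = 1.91e-06).

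On the supply side, the auxin influx carrier *LAX2* (Csa7G010800), which acts in leaf vein formation in Arabidopsis, had 23.3 and 29.9 RPM in vein and 244 and 231 in fruit, 8.93-fold higher in fruit (log2 difference -3.15 ± 0.12, limma adjusted p = 1.18e-06). A GH3 gene (Csa3G198490), of the family that conjugates auxin to amino acids, had 4.31 and 4.77 RPM in vein and 29.0 and 31.3 in fruit (-2.60 ± 0.13, limma adjusted p = 3.46e-06). A SAUR gene (Csa7G448680) had 1.22 and 0.868 RPM in vein and 14.2 and 9.23 in fruit (-2.97 ± 0.25, limma adjusted p = 3.47e-05). Over the study's list of auxin-related genes, 9 of 30 tested were higher in vein and 10 higher in fruit, and on the TMM scale 9 and 7.

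Peroxidases, which act on lignin and wall phenolics, were mostly higher in fruit. Of 16 tested, 11 were higher in fruit and 1 higher in vein, on the TMM scale 10 and 2, with a median of -1.88 that stayed at -1.51 to -1.39 under the other scalings. Of these genes 12 were among those listed as raised in RNAi vein, of which 45.3% were higher in WT fruit. Csa6G213910 had 0.166 and 0.868 RPM in vein and 67.1 and 84.9 in fruit (-6.32 ± 0.32, limma adjusted p = 3.48e-06). Csa4G285770, 1 of several peroxidase genes with close numbers, had 106 and 154 RPM in vein and 653 and 551 in fruit (-2.23 ± 0.17, limma adjusted p = 2.28e-05). The GO list of peroxidases was not chosen on RNAi values but was cut to its first 50 identifiers. It gave 11 of 32 higher in fruit and 3 in vein, and on the TMM scale 8 and 6, with a median of -0.64.

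Pathogen-related genes were less one-sided. Of 17 chitinase, thaumatin and pathogenesis-related genes 7 were higher in fruit and 1 in vein, on the TMM scale 4 and 3, with a median of -0.66. A chitinase-domain glycosyl hydrolase (Csa1G267230) had 3.87 and 4.68 RPM in vein and 21.4 and 20.1 in fruit (log2 difference -2.16 ± 0.15, limma adjusted p = 1.38e-05). A thaumatin-like gene (Csa3G872740), of an antifungal family, had 4.42 and 3.57 RPM in vein and 16.98 and 15.8 in fruit (-1.92 ± 0.16, limma adjusted p = 3.31e-05). Of these 17, 11 had been listed as raised in RNAi vein, of which 45.3% were higher in WT fruit (29.9% on the TMM scale). Of 22 glutathione S-transferases, which detoxify by conjugation, 8 were higher in fruit and 1 in vein (6 and 1 on the TMM scale). All but 1 of them, 21 in number, came from the raised genes, so the fruit count was not above the share of that class. TAU 8 member Csa4G303160 had 21.8 and 26.9 RPM in vein and 91.0 and 96.2 in fruit (-1.93 ± 0.11, limma adjusted p = 6.48e-06). Of 27 heat shock genes, 21 of them listed as raised, 8 were higher in fruit and 4 in vein (6 and 7 on the TMM scale). Their median of -0.23 turned to 0.14 to 0.27 under the other scalings. The co-chaperone gene Csa5G175710 had 1.27 and 1.49 RPM in vein and 70.4 and 60.8 in fruit (-5.13 ± 0.15, limma adjusted p = 4.53e-07).

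Few genes were called in the GO lists of general cell functions. Translation initiation factors, cut to their first 50 identifiers, gave 1 of 48 higher in vein and 6 higher in fruit, with a median of -0.53. The mitochondrial NADH dehydrogenase gave 2 and 3 of 30 with a median of -0.17, and cytochrome-c oxidase 1 and 1 of 20 with a median of -0.10. These shares lay below the 8.66% and 23.9% of all genes. Lists of sugar-active enzymes were also mixed, with 3 of 30 beta-galactosidases higher in vein and 4 in fruit, 4 and 4 of 16 polygalacturonases, and 1 and 2 of 14 beta-fructofuranosidases. Serine endopeptidase inhibitors, by contrast, gave 6 of 14 higher in fruit and none in vein, and 4 and 0 on the TMM scale, with a median of -0.90. O-methyltransferases gave 6 of 20 higher in vein and 5 in fruit.

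Among the 8 annotated genes with the widest gap in each direction, those on the vein side were mostly enzymes and transporters. A 2Fe-2S protein gene (Csa5G171700) had 220 and 247 RPM in vein and 1.32 and 1.96 in fruit, 142-fold higher (log2 difference 6.79 ± 0.16, limma adjusted p = 2.42e-07). The gene for ent-kaurenoic acid hydroxylase 2 (Csa3G903540), a cytochrome P450 of gibberellin synthesis, had 789 and 523 RPM in vein and 9.20 and 7.31 in fruit (6.21 ± 0.19, limma adjusted p = 5.70e-07). Cation/H+ exchanger 18 (Csa4G050280) had 76.0 and 69.4 RPM in vein and 0.319 and 0.696 in fruit (6.21 ± 0.20, limma adjusted p = 6.93e-07). Fruit stayed below 10 RPM for each of these. Further P450 genes followed, with Csa1G044890 at 477 and 315 RPM in vein and 5.05 and 7.27 in fruit (5.88 ± 0.22, limma adjusted p = 1.10e-06) and Csa6G088160 at 149 and 90.2 RPM against 2.09 and 0.740 (6.02 ± 0.36, limma adjusted p = 6.94e-06).

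On the fruit side, the annotated genes with the widest gaps included Csa5G202370, whose domain DUF1313 and Arabidopsis match are those of the clock protein ELF4. It had 1.11 and 0.771 RPM in vein and 323 and 300 in fruit, 332-fold higher (log2 difference -7.77 ± 0.14, limma adjusted p = 2.36e-07). Lipoxygenase 1 (Csa2G024440), which oxygenates fatty acids, had 2.60 and 8.29 RPM in vein and 395 and 344 in fruit (-6.15 ± 0.41, limma adjusted p = 1.13e-05). Maternal effect embryo arrest 59 (Csa1G528510) had 14.8 and 14.7 RPM in vein and 1020 and 1001 in fruit (-6.05 ± 0.07, limma adjusted p = 6.80e-08). By difference in mean RPM, cold, circadian rhythm and RNA binding 2 (Csa2G247040) led the fruit calls, at 477 and 610 RPM in vein and 4493 and 4605 in fruit (-3.08 ± 0.14, limma adjusted p = 2.15e-06). An L-ascorbate oxidase (Csa1G604040), an enzyme of the cell wall space, followed at 361 and 449 RPM in vein and 4079 and 3026 in fruit (-3.12 ± 0.17, limma adjusted p = 4.44e-06). The gene Csa3G154390 had 1225 and 1144 RPM in vein and 2546 and 2430 in fruit, and was called on the RPM scale only (-1.07, and -0.57 with TMM factors).

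Several of the widest gaps had no annotation in the sources used here. Csa1G153560 had 575 and 462 RPM in vein and 0.182 and 0.392 in fruit (log2 difference 9.37 ± 0.17, limma adjusted p = 2.36e-07). Csa5G182730 had 9517 and 8172 RPM in vein and 13.2 and 27.5 in fruit (8.81 ± 0.29, limma adjusted p = 6.64e-07). Csa4G124910 and Csa2G196890 were 488-fold and 406-fold higher in vein. By amount of RPM, Csa5G609710 led the vein calls with 23405 and 20325 RPM in vein and 1346 and 1859 in fruit, 13.6-fold higher (3.79 ± 0.20, limma adjusted p = 4.18e-06). The neighbours Csa6G522690 and Csa6G522680 were 26.1-fold and 11.3-fold higher in vein, the first with 7140 and 6637 RPM there. On the fruit side, Csa6G518270 had 1 read over both vein libraries and 232 and 186 RPM in fruit, a ratio of pooled reads of 8100 with an exact 95% interval of 1453 to 319980 for counting error only. CsaUNG012530 had 0.221 and 0.145 RPM in vein and 411 and 154 in fruit (-8.53 ± 0.39, limma adjusted p = 2.42e-06), with the fruit libraries apart from each other but both far above vein.

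Genes without a read in a tissue were counted apart. Among genes tested, 50 had 0 reads in both vein libraries, and 10 of these averaged at least 10 RPM in fruit. In fruit 5 genes had 0 reads in both libraries, of which 1 averaged at least 10 RPM in vein. All of them were among the calls. The largest of the first kind was Csa4G126990, at 182 and 172 RPM in fruit and at least 1140-fold higher there. The largest of the second kind, named after its values were seen, was Csa2G225320, at 20.9 and 23.3 RPM in vein and at least 165-fold higher there.

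The same tissue contrast was read, as a description with no test, in the 4 libraries labelled *CsIVP*-RNAi, none of which enters the WT contrast. The targeted gene *CsIVP* (Csa6G483450) did not separate these libraries from WT. It had 0 reads in both libraries labelled RNAi vein, as in WT vein, and 42.3 and 52.1 RPM in those labelled RNAi fruit. The latter range overlaps the WT fruit values of 49.98 and 38.3. The paper reports less *CsIVP* transcript by qRT-PCR and less CsIVP protein by immunoblot in its RNAi lines, and sequenced the line it calls mild. Those assays were not repeated here, so the reads alone do not show that the knockdown failed. The 2 RNAi vein libraries were unlike each other. Their 100 most abundant genes held 12.7% and 18.8% of all RPM. Csa5G182730 had 109 and 6430 RPM in them, and Csa5G202370 had 211 and 0.843. Of the 1515 genes higher in WT vein, 95.1% were also higher in RNAi vein than in RNAi fruit and 71.6% without overlap between these groups, against 38.5% and 23.1% of all genes tested. Of the 1999 genes higher in WT fruit on both scales, 89.2% were also higher in RNAi fruit and 77.9% without overlap, against 61.5% and 44.7% of all genes tested. The median difference of the vein genes was 1.72 in WT and 1.19 in RNAi libraries, and that of the fruit genes -2.02 and -1.45, while the median of all genes was -0.51 and -0.21. Both sets were chosen on the WT values, so smaller medians in other libraries were to be looked for in advance. They do not show a weaker tissue difference in RNAi plants. At least 2-fold in the opposite direction were 6 of the vein genes and 55 of the fruit genes.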

How the data were processed

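Directional RNA libraries were sequenced from leaf vein and young fruit, and the values used here are RPM per gene (reads scaled to a common library total of 1e+06), which the authors deposited for each library after mapping with TopHat to cucumber genome version 2i and counting with HTSeq-count. The versions of both tools are not given in the sources used here. All deposited RPM values were whole multiples of 1 read within 0.05, which gave the library totals and the reads for count tests. Genes reaching 1 RPM in 2 or more of the 4 WT libraries were tested with limma 3.58.1 (R 4.3.3, trend) on log2(RPM + 0.5), and called at 2-fold or more and a Benjamini-Hochberg adjusted p under 0.05. Fold changes on this scale understate those of low genes.

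Alternatives were other pseudocounts and filters, TMM factors, quantile normalization, edgeR 4.0.16 (quasi-likelihood and exact tests), DESeq2 1.42.0, all 8 libraries in 1 fit, a replicate block, other thresholds, and each library left out. In a simulation, counts for all 4 libraries were drawn from the WT fruit means, with 200 genes changed 4-fold in either direction. Of 197 changed genes past the filter 191 were recovered, with 5 false calls among 17225 genes. Far fewer genes changed there than were called in the real data, so the simulation does not bear on the scaling.

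Named genes were those of the study's vascular list, the 8 annotated and 4 of any kind with the widest gap per direction and at least 10 RPM in the higher tissue, the 5 with the largest RPM difference per direction, up to 5 called and 2 not called members per list, and 5 annotated genes with the smallest difference. This rule took 317 genes, of which 92 are named, and 12 more were chosen after their values were seen. Members and lists were chosen with earlier results of these data known. Annotations came from the study's tables and covered 2877 of 17783 genes. GO lists were held only to their first 50 identifiers, so a long list leaves out the rest of its genes. None of 23999 reference genes matched the identifiers, so no sequences or coordinates are given. Apart from rankings by RPM, which is not adjusted for gene length, levels were not compared between genes. Intervals and floors cover counting error only.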

Additional observations from a re-analysis of the deposited data

How the results depend on the processing

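The number of genes called depended on the scaling. Higher in vein and higher in fruit were 2470 and 1999 genes with TMM factors, 2382 and 2009 with quantile normalization, 2583 and 2235 under the quasi-likelihood fit of edgeR, 2587 and 2258 under its exact test, and 2596 and 2071 with DESeq2, against 1515 and 4186 on the RPM scale. Without a fold threshold the counts were 3065 and 10437, and at 4-fold 570 and 1023. Leaving out each library in turn gave 1478 to 1573 genes higher in vein and 3900 to 4508 higher in fruit. In these 4 fits the lone library of a tissue is assumed to vary like the other tissue. The replicate block gave 1516 and 4195 genes. Same-numbered libraries of the 2 tissues shared only a number, with a correlation of -0.02 between their deviations. In every setting that kept the thresholds, 15 in all, 1066 genes were called higher in vein and 1504 higher in fruit.

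Of 104 named genes tested 101 were called, and 21 lost the call in at least 1 of 18 settings, 18 of them at 4-fold. *STM* and Csa3G154390 lost it with TMM factors, both edgeR tests and DESeq2, and *STM* also with quantile normalization and without fruit replicate 2. *BP* lost it with a pseudocount of 1, at an adjusted p of 0.01 and without vein replicate 1 or fruit replicate 1. Under the stricter filter 102 of the 104 named genes were tested, since *BP* and Csa1G051580 were too low to pass it. With all 8 libraries in 1 fit the calls on *BP*, Csa3G598910, Csa6G139750 and Csa1G051580 were lost. The SEOR1 gene Csa2G193340, not called, turned to -0.09 without vein replicate 1, with a range of -0.13 to 0.22 over the fits without 1 library, the lowest without fruit replicate 2. The cause of these changes was not tested.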

Other observations

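The following groups and genes were chosen after their values were seen, by words in the annotations that the study gave to genes changed in RNAi vein. Of 11 clock and photoperiod genes tested, 10 were higher in fruit and 1 higher in vein on the RPM and the TMM scale, with a median log2 difference of -3.11. Of the 11, 10 had been listed as raised in RNAi vein, of which 45.3% were higher in WT fruit. A *GIGANTEA* gene (Csa6G055360), which links the clock to flowering, had 79.4 and 102 RPM in vein and 1240 and 1382 in fruit. *FKF1* (Csa5G021300), a blue-light receptor of the same pathway, had 4.64 and 5.50 RPM in vein and 97.8 and 97.5 in fruit. *CONSTANS-like 9* (Csa6G113560) had 11.1 and 12.1 RPM in vein and 198 and 182 in fruit, and *pseudo-response regulator 5* (Csa5G139010) had 14.4 and 18.5 against 95.8 and 95.04. Fruit was above vein in each library for all of these. The hour of collection is not given in the sources used here, and its part in these differences was not tested.

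Lipoxygenases, which start the synthesis of jasmonate and of volatile aldehydes, were higher in fruit in 14 of 15 genes tested, 13 on the TMM scale, with a median of -2.42. Of the 15, 12 had been listed as raised in RNAi vein, of which 45.3% were higher in WT fruit (29.9% on the TMM scale). Of all genes tested 23.9% were higher in fruit (11.4% on the TMM scale). The summed RPM of the lipoxygenases was 118 and 150 in vein and 1458 and 1528 in fruit. Lipoxygenase 1 gene Csa2G023940 had 3.26 and 12.1 RPM in vein and 457 and 315 in fruit. Several of these genes have close identifiers, so reads of near-identical copies may have been split. Both sucrose synthases tested were higher in fruit, with Csa4G001950 at 2.21 and 2.56 RPM in vein and 104 and 108 in fruit, and Csa1G597800 at 0.553 and 0.723 against 33.2 and 26.2. Both had also been listed as raised in RNAi vein. Cytochrome P450 genes went both ways, with 14 of 48 higher in vein and 15 higher in fruit, and 18 and 12 on the TMM scale.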
